A study of Oryza sativa with 12 samples.

Results

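The genes described here are 5 of the 15140 rice genes that had a probe set of their own on the array. They are *SGR* and *NYC1*, which act in the breakdown of chlorophyll, and *CAB2R*, *LFNR1* and *CHLP*, which act in light harvesting, electron transfer and chlorophyll synthesis. They were chosen by their measured difference between dried and watered seedlings in an earlier reading of the same arrays. Their values under that comparison are therefore given as a description with no test, whereas the comparisons of genotypes were not used to choose them. Each gene was found by its symbol or synonym in the reference gene table, and each had 1 probe set. The study hybridised RNA of whole seedlings of the cultivar Pusa Basmati 1 to 12 arrays in 4 groups of 3, which the methods call independent biological replicates. In H49_DS, transgenic seedlings of 3 weeks were left between tissue paper for 3 h (desiccation stress, DS, called drought in the labels), and in H49_CT seedlings of the same line stood in water for 3 h. In WT_DS and WT_CT, wild-type (WT) seedlings of the same age had the same treatments. All were grown in hydroponics at 28 degrees with 14 h of light a day. H49 is 1 line that carries the reading frame of *OsHOX24*, an HD-ZIP I transcription factor gene, behind a ubiquitin promoter. The labels name the transgene but not the line, which is known from the paper.

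A leaf builds chlorophyll from glutamate through the tetrapyrrole pathway, in which magnesium chelatase inserts the metal, protochlorophyllide oxidoreductase carries out the step that needs light, and chlorophyll synthase adds the phytyl tail. The finished pigment is held by chlorophyll a/b-binding proteins, which pass the energy of light to the photosystems, and electrons leave the chain through ferredoxin-NADP reductase. Breakdown runs along a separate route: chlorophyll b is first reduced towards chlorophyll a, the magnesium is then removed, and the ring is opened and reduced to colourless products. In senescing leaves this route is known to be switched on while the genes of light capture are turned down.

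The deposited values are log2 values from Robust Multi-array Average (RMA), so a difference of 1 is a fold of 2. Array medians lay between 4.33 and 4.46 over 54922 probe sets, and within a group arrays correlated at 0.949 to 0.969 across genes. The level of *OsHOX24* was 9.44 to 10.17 in H49_DS, 3.23 to 4.56 in H49_CT, 9.38 to 10.29 in WT_DS and 2.83 to 5.61 in WT_CT. Over both treatments *OsHOX24* was not higher in the arrays labelled H49 (difference -0.22, limma adjusted p = 0.978). The tables used here do not give where its probes lie, so it is not known whether they measure the transcript of the construct. The genotypes below are therefore those of the labels. Whole seedlings hold leaf and root, and in such samples fewer green cells and less RNA per green cell cannot be told apart.

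*SGR* (STAY-GREEN) encodes the magnesium dechelatase that removes the metal from chlorophyll a. Its log2 values were 9.36, 8.76 and 9.17 in H49_DS, against 6.04, 6.38 and 6.17 in H49_CT. In wild type they were 8.14, 8.97 and 9.28 in WT_DS, against 6.44, 6.50 and 6.31 in WT_CT. Every dried seedling sample was thus above every watered one, and the watered arrays lay close together. The difference was 2.90 in H49 (95% interval 2.34 to 3.47, 7.48-fold) and 2.38 in WT (1.82 to 2.94, 5.22-fold), places 67 and 108 from the top of the 15140 genes.

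*NYC1* encodes a chlorophyll b reductase, which starts the turnover of chlorophyll b. Its log2 values were 11.63, 11.08 and 11.34 in H49_DS, against 9.06, 8.68 and 9.67 in H49_CT. In wild type they were 10.71, 11.30 and 11.42 in WT_DS, against 9.23, 8.80 and 9.35 in WT_CT. Here too the dried and watered arrays did not overlap in either genotype. The difference was 2.21 in H49 (1.62 to 2.80, 4.63-fold) and 2.02 in WT (1.43 to 2.61, 4.06-fold), places 151 and 182 from the top.

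**Figure D1:**
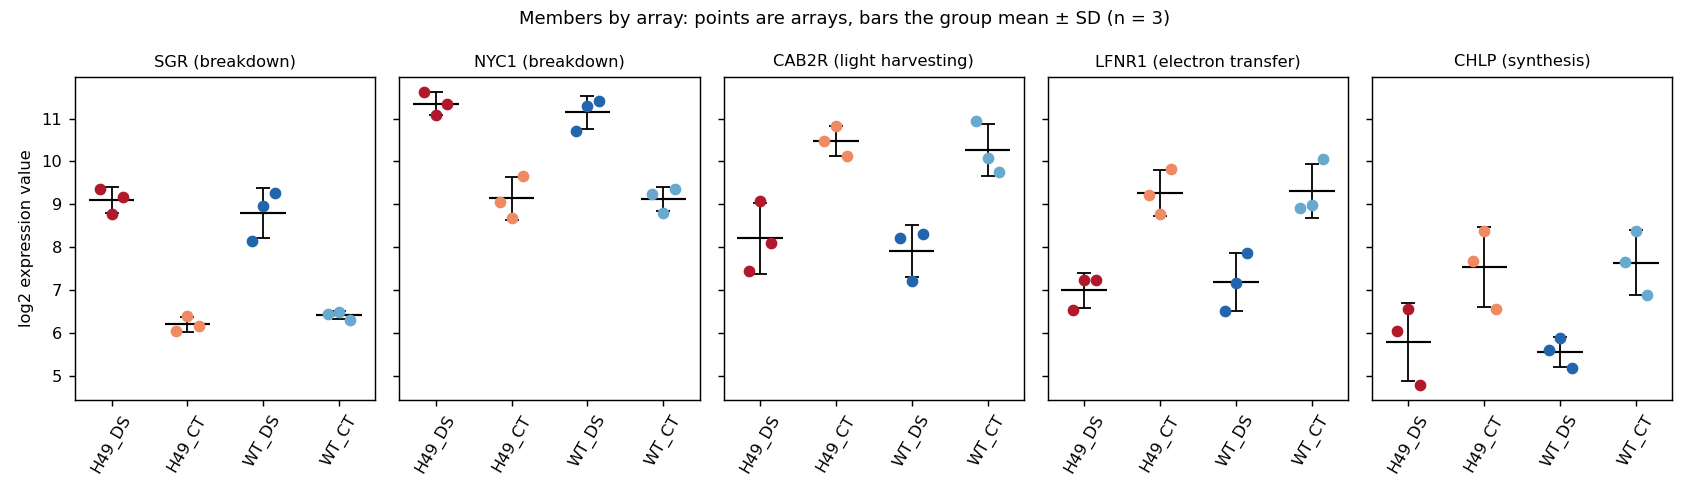
Log2 expression values of the 5 genes in each of the 12 arrays, by group (x axis), with the group mean. *SGR* and *NYC1* sit higher in H49_DS and WT_DS than in H49_CT and WT_CT, and *CAB2R*, *LFNR1* and *CHLP* sit lower, with overlap in *CHLP* between H49_DS and H49_CT alone.

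*CAB2R* encodes a chlorophyll a/b-binding protein of the light-harvesting antenna. Its log2 values were 7.44, 9.08 and 8.09 in H49_DS, against 10.49, 10.84 and 10.12 in H49_CT. In wild type they were 8.22, 7.20 and 8.31 in WT_DS, against 10.94, 10.09 and 9.76 in WT_CT. All dried arrays were below all watered ones, although the dried H49 arrays spread widely (SD 0.82). The difference was -2.28 in H49 (-3.18 to -1.37, 4.85-fold lower) and -2.35 in WT (-3.26 to -1.45, 5.11-fold lower), places 79 and 53 from the bottom.

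*LFNR1* encodes leaf-type ferredoxin-NADP reductase, which passes electrons from ferredoxin to NADP. Its log2 values were 6.53, 7.24 and 7.22 in H49_DS, against 9.21, 8.76 and 9.83 in H49_CT. In wild type they were 6.50, 7.17 and 7.86 in WT_DS, against 8.92, 8.98 and 10.05 in WT_CT. The dried and watered arrays did not overlap in either genotype. The difference was -2.27 in H49 (-3.12 to -1.43, 4.84-fold lower) and -2.14 in WT (-2.98 to -1.30, 4.41-fold lower), places 80 and 90 from the bottom.

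*CHLP* encodes geranylgeranyl reductase, which makes the phytyl chain of chlorophyll. Its log2 values were 6.03, 6.56 and 4.77 in H49_DS, against 7.68, 8.38 and 6.55 in H49_CT. In wild type they were 5.60, 5.88 and 5.18 in WT_DS, against 7.65, 8.39 and 6.88 in WT_CT. The wild-type arrays did not overlap, whereas the highest H49_DS array, replicate 2, reached the lowest H49_CT array, replicate 3. The difference was -1.75 in H49 (-2.85 to -0.65, 3.36-fold lower) and -2.09 in WT (-3.18 to -0.99, 4.25-fold lower), places 288 and 106 from the bottom. In H49 it ran from -2.24 without H49_CT replicate 3 to -1.24 without H49_DS replicate 3.

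Of all 15140 genes, 9.58% had every DS array above every CT array in both genotypes, as *SGR* and *NYC1* did, and 19.2% had every DS array below, as *CAB2R* and *LFNR1* did. The median change of all genes was -0.06 in each genotype, and with arrays centred on the median it was 0.16 in H49 and 0.14 in WT. So centred, the 5 genes kept their directions, with changes in H49 of 3.12 for *SGR*, 2.43 for *NYC1*, -2.06 for *CAB2R*, -2.06 for *LFNR1* and -1.53 for *CHLP*.

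**Figure D2:**
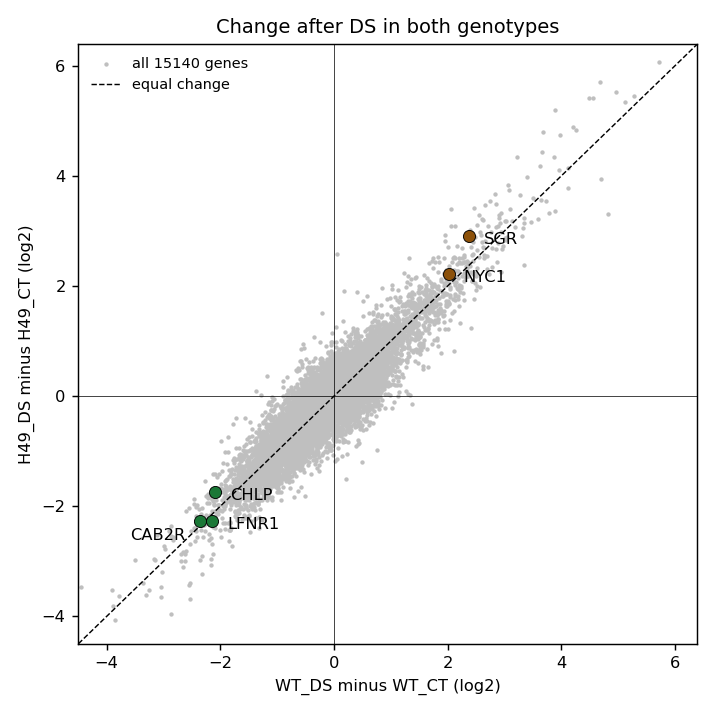
Change after DS in H49 and in WT (log2, DS minus CT) for all 15140 genes, with the 5 genes marked. *SGR* and *NYC1* lie between 2.02 and 2.90, and the other 3 between -2.35 and -1.75, while the median gene lies at -0.06.

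The comparison of H49 with WT asks whether the line differed in these genes. Under the same treatment the H49 and WT arrays of each of the 5 genes overlapped, so in the order of mean levels the 2 DS groups did not separate from each other, nor did the 2 CT groups. *SGR* averaged 9.10 ± 0.31 in H49_DS, 6.20 ± 0.17 in H49_CT, 8.80 ± 0.59 in WT_DS and 6.41 ± 0.10 in WT_CT (SD, n = 3 each). *NYC1* averaged 11.35 ± 0.27 in H49_DS, 9.14 ± 0.50 in H49_CT, 11.15 ± 0.38 in WT_DS and 9.13 ± 0.29 in WT_CT. For both breakdown genes the mean of H49_DS was the highest of the 4 groups, within the range of WT_DS. *CAB2R* averaged 8.20 ± 0.82 in H49_DS, 10.48 ± 0.36 in H49_CT, 7.91 ± 0.61 in WT_DS and 10.26 ± 0.61 in WT_CT. *LFNR1* averaged 7.00 ± 0.41 in H49_DS, 9.27 ± 0.54 in H49_CT, 7.18 ± 0.68 in WT_DS and 9.32 ± 0.64 in WT_CT. *CHLP* averaged 5.79 ± 0.92 in H49_DS, 7.54 ± 0.93 in H49_CT, 5.55 ± 0.36 in WT_DS and 7.64 ± 0.76 in WT_CT, and its H49 arrays under each treatment spanned more than the difference between genotypes.

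By limma, 0 of the 5 genes were called between the arrays labelled H49 and WT over both treatments, and 0 in the interaction of genotype and treatment. A call needed a 2-fold difference and an adjusted p no higher than 0.05, and the share of all genes called was 0% in each comparison. The smallest unadjusted p among the 5 was 0.406 between genotypes and 0.181 in the interaction, so 0 of 5 were under 0.05, against 604 and 360 of all genes. A plain test of each gene on its own, with the same adjustment, called 0 genes between genotypes. It had no term for treatment, so changes after DS counted as spread. It could hardly call genes that respond to DS as these 5 do. The difference over both treatments was 0.04 for *SGR* (95% interval -0.35 to 0.44), 0.11 for *NYC1* (-0.31 to 0.53) and 0.25 for *CAB2R* (-0.38 to 0.89). It was -0.11 for *LFNR1* (-0.71 to 0.48) and 0.07 for *CHLP* (-0.71 to 0.84). Each of these intervals lay within a 2-fold difference either way. The difference in response, H49 minus WT, was 0.52 for *SGR* (-0.27 to 1.31, limma adjusted p = 1), and it ran from 0.19 without WT_DS replicate 1 to 0.76 without WT_DS replicate 3. For *NYC1* it was 0.19 (-0.65 to 1.03), for *CAB2R* 0.08 (-1.20 to 1.35), for *LFNR1* -0.13 (-1.32 to 1.05) and for *CHLP* 0.34 (-1.22 to 1.89). The intervals of the difference in response all reached beyond 2-fold, so this fit did not bound it within 2-fold for any of the 5 genes.

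**Figure D3:**
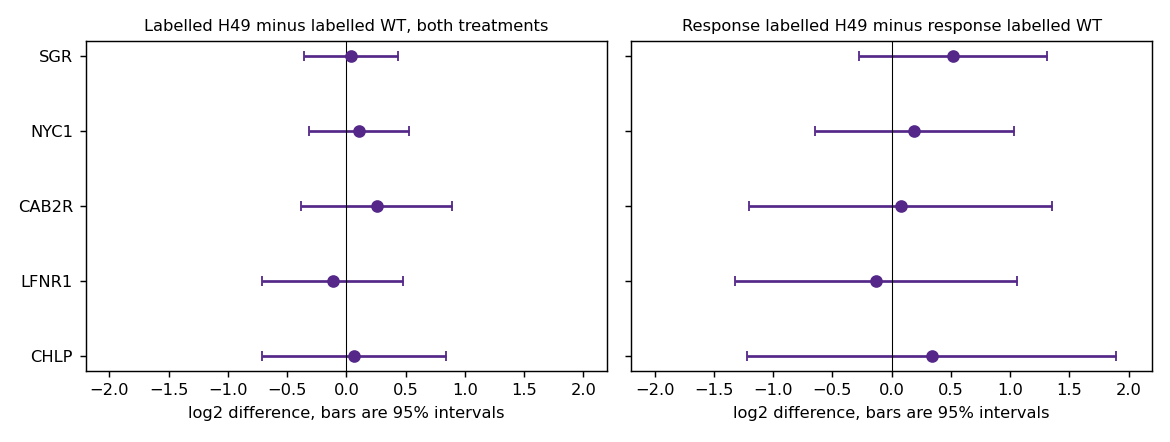
Log2 differences of the 5 genes (rows) with 95% intervals (bars): arrays labelled H49 minus WT over both treatments on the left, and the response to DS in H49 minus that in WT on the right. All intervals include 0, and those on the right are wider.

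The 5 genes were then set among 23 further genes of the same pathways that had a probe set, from lists chosen with earlier results of these arrays known. The limma fit called 3 of the 23 higher and 9 lower in H49_DS against H49_CT, and 2 higher and 8 lower in WT_DS against WT_CT. Over all genes the share that rose was 5.26% in H49 and 4.93% in WT, and the share that fell was 9.3% in H49 and 8.47% in WT. Between genotypes and in the interaction 0 of the 23 were called by limma, with smallest adjusted p of 0.969 and 1. At an unadjusted limma p under 0.05 there was 1 of the 23 between genotypes, against 604 of all 15140 genes. It was the phytochrome gene *phyC* (0.28 higher in the arrays labelled H49, limma adjusted p = 0.969), which was not called. In the interaction there were 0 of the 23, against 360 of all genes. The lists were partial: 5 of 9 entries for breakdown, 11 of 22 for synthesis, 4 of 6 for light harvesting, 4 of 11 for electron transfer and 3 of 10 for regulators matched a gene with a probe set of its own.

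Of the other 3 breakdown genes, 2 rose in H49 and 1 in WT, with a median change of 1.08 in H49 and 0.81 in WT. *RCCR1*, the reductase that acts on the opened ring, had log2 values of 6.66, 6.75 and 6.55 in H49_DS, against 4.91, 4.98 and 4.97 in H49_CT. Its WT values were 6.05, 6.76 and 7.01 in WT_DS, against 5.17, 5.09 and 4.76 in WT_CT. *RCCR1* rose by 1.70 in H49 (limma adjusted p = 0.000168) and by 1.60 in WT (adjusted p = 0.000296), with no overlap of arrays. *NOL*, which encodes the NYC1-like chlorophyll b reductase, rose by 1.08 in H49 (adjusted p = 0.00128), a call that was lost without H49_CT replicate 2 (0.94). In WT its change of 0.81 (adjusted p = 0.00817) was under the fold minimum, which it passed with arrays centred on the median (1.01). *THF1*, a gene of thylakoid formation whose rice mutant keeps its chlorophyll longer, was not called, at 0.14 in H49 and 0.21 in WT.

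Of the other 10 synthesis genes, 7 fell in H49 and 6 in WT by limma, and 0 rose in either, also at an unadjusted p under 0.05. Their median change was -1.09 in H49 and -1.25 in WT. *PORB*, the light-dependent protochlorophyllide oxidoreductase, had log2 values of 6.17, 6.38 and 6.0 in H49_DS, against 8.31, 8.19 and 7.07 in H49_CT. In wild type *PORB* was 5.93, 5.83 and 6.09 in WT_DS, against 8.04, 8.16 and 7.63 in WT_CT. It fell by 1.67 in H49 (adjusted p = 0.000876) and fell by 1.99 in WT (adjusted p = 0.000309), the largest fall of the 10 on average.

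The 3 subunit genes of magnesium chelatase fell after DS in both genotypes. *CHLI* fell by 1.37 in H49 and fell by 1.43 in WT, and *CHLD* fell by 1.45 in H49 and fell by 1.23 in WT, with no overlap of arrays. *CHLH*, the subunit that binds the porphyrin, fell by 1.60 in H49 (adjusted p = 0.0162) and fell by 1.50 in WT (adjusted p = 0.024), but its H49 arrays overlapped. Its call was lost in H49 on leaving out any 1 of 4 arrays (replicates 1 and 2 of H49_CT, replicates 1 and 3 of H49_DS), and in WT on leaving out any 1 of the arrays with the same numbers or with arrays centred on the median.

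Of the remaining synthesis genes, *PPOX1* and *GSA* fell in both genotypes and *CHLG* fell in H49. *PPOX1*, which makes protoporphyrin, fell by 1.06 in H49 (adjusted p = 0.0111) and fell by 1.36 in WT (adjusted p = 0.00286). *GSA*, which makes aminolevulinate, fell by 1.11 in H49 (adjusted p = 0.00497) and fell by 1.27 in WT (adjusted p = 0.00247). *CHLG*, the chlorophyll synthase that attaches the chain made by *CHLP*, fell by 1.05 in H49 (adjusted p = 0.0116), and its change in WT was -0.61 (adjusted p = 0.118). The calls of *PPOX1*, *GSA* and *CHLG* in H49 were lost with arrays centred on the median and without H49_CT replicate 3, and those of *PPOX1* and *CHLG* also without H49_DS replicate 1. The divinyl reductase gene *DVR* (-0.79 and -0.50 in H49 and WT), the chlorophyllide a oxygenase gene *CAO* (-0.58 and -0.74) and *HEMB*, which joins aminolevulinate into the first ring (0.33 and 0.05), were not called.

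Of the other 2 antenna genes, 1 fell in each genotype (median change -1.66 in H49 and -1.86 in WT). *RCABP69*, another chlorophyll a/b-binding protein gene, had log2 values of 7.47, 8.11 and 6.83 in H49_DS, against 10.50, 10.32 and 9.29 in H49_CT. In wild type it was 7.00, 7.75 and 7.40 in WT_DS, against 10.38, 10.57 and 9.72 in WT_CT. It fell by 2.57 in H49 (5.93-fold, adjusted p = 0.000301) and fell by 2.84 in WT (7.16-fold, adjusted p = 0.000159), while *CAB1R* changed by -0.76 in H49 (adjusted p = 0.0643) and by -0.87 in WT (adjusted p = 0.0361, under the fold minimum). The antenna genes are a family of similar sequence, and whether probes of 1 member also bind transcripts of another is not known here. Of the other 4 electron transfer genes, 1 fell in each genotype, with a median change of -0.38 in H49 and -0.51 in WT. *petC*, the Rieske protein of the cytochrome b6f complex, fell by 1.44 in H49 (adjusted p = 0.000463) and was 2.46-fold lower in WT_DS than in WT_CT (adjusted p = 0.00106). A further gene listed by its symbol, *FNR*, changed by -0.16 in H49 and by -0.22 in WT and was not called. How close it is to *LFNR1* was not examined. The photosystem I subunit genes were not called either, with *PSAH* at -0.59 in H49 and -0.81 in WT and *PSAG* at 1.33 in H49 and 1.10 in WT (adjusted p = 0.197 and 0.288).

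Of the 4 regulators, 1 rose in each genotype, and the median change was -0.22 in H49 and -0.30 in WT. *OsDOS*, a zinc finger gene known to delay leaf senescence in rice, rose by 1.08 in H49 (adjusted p = 0.00277) and by 1.27 in WT (adjusted p = 0.00113). Its H49 call was lost without H49_CT replicate 3 and without H49_DS replicate 3. *GLK2*, a transcription factor gene of greening, changed by -0.65 in H49 and by -0.73 in WT, and the phytochrome genes *phyC* (-0.24 and -0.35) and *PhyB* (-0.19 and -0.24) by less. None of these 3 was called by limma in either genotype.

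**Figure D4:**
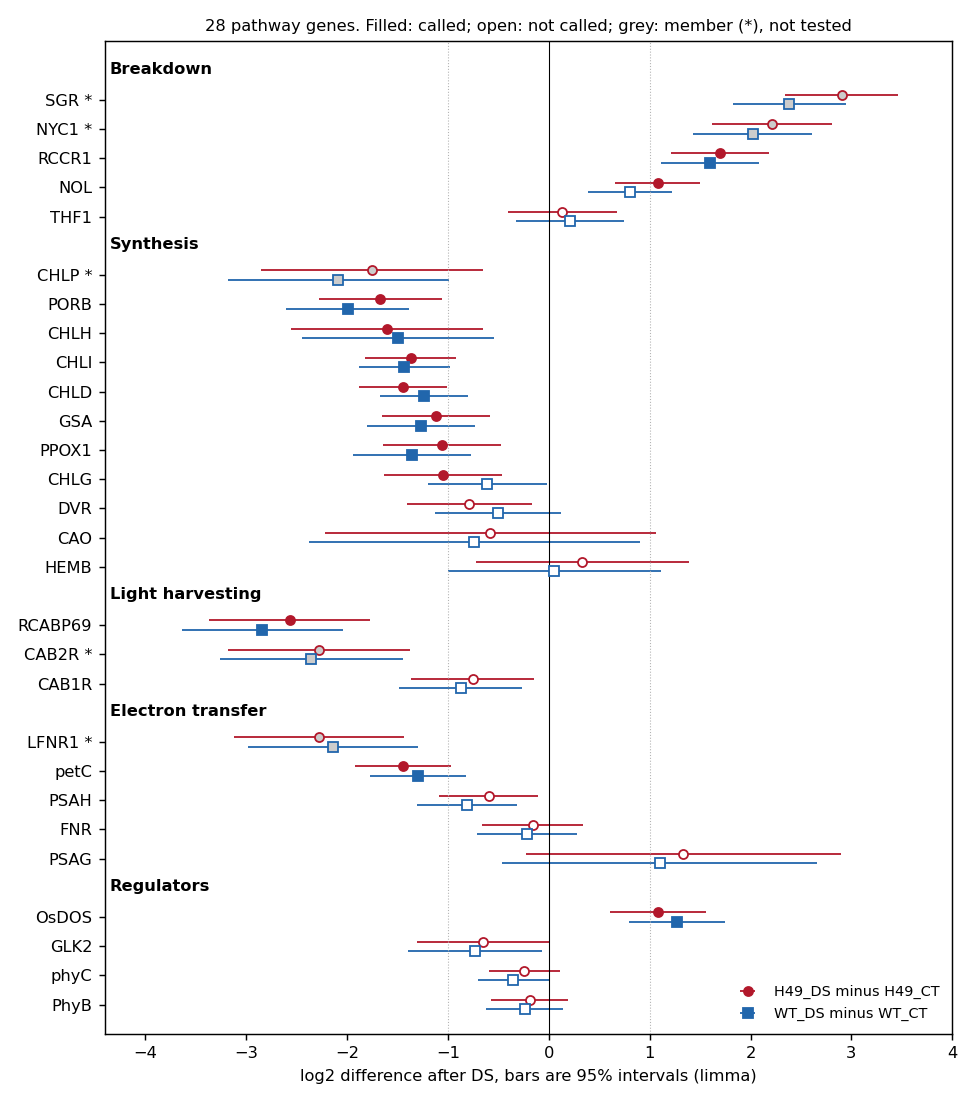
Change after DS (log2, DS minus CT) of the 28 pathway genes in H49 and WT, grouped by list (rows), with 95% intervals. Filled marks were called, open marks were not, and grey marks are the 5 chosen genes, which were not tested. The intervals of the grey marks do not allow for that choice. Breakdown genes lie at or above 0.14, and of the synthesis genes only *HEMB* lies above 0.

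The likeness of 2 genes was measured as the root mean square difference of their log2 values over the 12 arrays, each centred on its own mean, among 1717 genes with a recognised name. *SGR* was nearest to *RFS* (0.257), *OsPP2C09* (0.311) and *ICL* (0.334), where the median gene was at 1.421. *NYC1* was nearest to *GA20OX3* (0.217), *ABCG53* (0.272) and *BGLU25* (0.281). For *CAB2R* the nearest were *OsRac4* (0.476), *PDC* (0.497) and *OsPP2C05* (0.518), and the nearest genes were thus farther off than for the breakdown genes. *LFNR1* was nearest to *PNP1* (0.346), *RNC1* (0.448) and *FBPase* (0.480). *CHLP* was nearest to *CHLH* (0.297) and *PORB* (0.454), both of the synthesis list, and to *OsTrx03* (0.475). Between the chosen genes the difference was 0.413 for *SGR* and *NYC1*, 0.720 for *CAB2R* and *CHLP*, 0.759 for *CAB2R* and *LFNR1* and 1.019 for *LFNR1* and *CHLP*. The 12 arrays share the treatment groups, so genes with a like change after DS lie near each other by this measure.

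Within groups, the values of *CHLP* stood in the same order by replicate number. The value was highest in replicate 2 and lowest in replicate 3 in all 4 groups, as was that of *CHLH*, 2 of the 28 pathway genes against 0.416% of all genes (63). *CCA1*, a morning gene of the circadian clock that was picked after its values were seen, kept the same order. Its log2 values were 9.96 to 10.62 in the replicate 2 arrays, 7.33 to 8.40 in replicate 1 and 5.40 to 6.48 in replicate 3. *GI*, an evening clock gene picked in the same way, was lowest in replicate 2 (9.41 to 9.90) in each group. *LFNR1* and *NYC1* were each highest in replicate 3 in 3 of the 4 groups. The labels do not say what a replicate number marks or when the seedlings were harvested, and the part of either in the spread of *CHLP* was not tested.

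**Figure D5:**
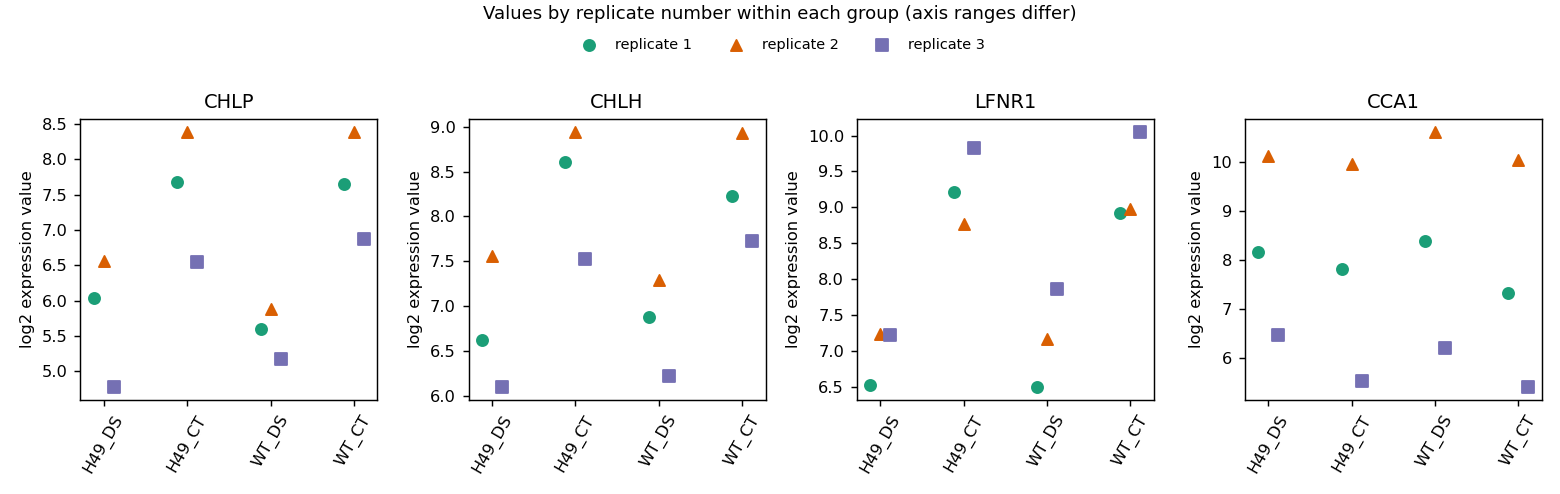
Log2 values of *CHLP*, *CHLH*, *LFNR1* and *CCA1* by group (x axis), marked by replicate number, with a separate y range for each gene. For *CHLP*, *CHLH* and *CCA1*, replicate 2 is highest and replicate 3 lowest in all 4 groups.

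Of the tissue marker entries, 4 of 10 for root had a probe set, and 0 of 2 for leaf matched one. *Lsi2*, a silicon efflux transporter gene of roots, fell by 1.34 in H49 and fell by 1.81 in WT, while *HMA2*, a heavy metal transporter gene, rose by 1.55 in H49 and by 2.12 in WT. *OsCASP1* (0.03 and -0.19 in H49 and WT) and *YSL15* (0.25 and 0.01) were not called. The summed level of the 4 root genes on the linear scale was 254.8 to 313.5 in H49_DS and 201.8 to 334.0 in H49_CT. In wild type it was 285.9 to 298.9 in WT_DS and 216.1 to 400.4 in WT_CT, so the dried and watered arrays overlapped. Most of the sum came from *Lsi2* and *HMA2*, which moved in opposite directions, so the overlap does not show whether the share of root was stable. The part of tissue composition in the changes of the 5 genes was not tested. Sequences and promoter motifs of the genes were not analysed here.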

How the data were processed

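The authors hybridised biotin-labelled RNA to Affymetrix arrays and normalized them by RMA. The deposited values are on the log2 scale, 1 per probe set and array, and were used as deposited. For labelling of 500 ng of RNA, the sample labels give a 3' IVT PLUS kit but the methods the WT PLUS kit. Of 54922 probe sets, 15829 carried 1 gene in the platform annotation, 440 carried several and 38653 were unnamed here. The 15140 genes included 627 with more than 1 probe set, for which the probe set of highest mean was used. Names came from a reference gene table.

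Arrays were grouped by their labels. The 12 arrays were fitted together in R 4.3.3 by limma 3.58.1 (lmFit and eBayes), each group having its own mean, and p-values were adjusted over all genes by the Benjamini-Hochberg method. The fit was run on simulated data with independent noise in each array. That setting leaves out the likeness of arrays with the same replicate number. The small number of arrays limits the precision of the fit. The members and lists were chosen with earlier results of these data known. Named genes were the 5 members, up to 4 further genes of each list with the largest changes among those called and not overlapping, and the 3 nearest named genes of each member. The remaining list genes were added for completeness and *CCA1* and *GI* after their values were seen. Alternatives covered array scaling, a filter on dim genes (mean log2 of at least 5), the mean of all probe sets, each genotype alone, no fold minimum, a plain t-test per gene, a block for the replicate number and each array left out. Summaries were computed in Python 3.11.15 (pandas 2.3.3, numpy 2.4.6, scipy 1.17.1) and plotted by matplotlib 3.10.9.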

Additional observations from a re-analysis of the deposited data

How the results depend on the processing

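Changes of the 5 genes after DS kept their direction. Only rescaling or leaving out arrays of the same genotype could move them. With single arrays left out they ran in H49 from 2.77 to 3.07 for *SGR*, 1.98 to 2.48 for *NYC1*, -2.71 to -1.90 for *CAB2R* and -2.53 to -1.99 for *LFNR1*, and in WT from 2.14 to 2.71 for *SGR*, 1.86 to 2.24 for *NYC1*, -2.60 to -2.0 for *CAB2R*, -2.48 to -1.77 for *LFNR1* and -2.47 to -1.71 for *CHLP*. Genotype differences were near 0, turned sign in several settings and were never called. With quantile normalization the interaction of *CAB2R* was -0.018, and the difference over both treatments was -0.006 for *CHLP* and -0.018 for *SGR*. When 1 array at a time was left out, the genotype difference lay between -0.12 and 0.16 for *SGR*, -0.025 and 0.22 for *NYC1*, 0.036 and 0.45 for *CAB2R*, -0.28 and 0.069 for *LFNR1* and -0.14 and 0.32 for *CHLP*. The interaction ran from 0.19 to 0.76 for *SGR*, -0.036 to 0.46 for *NYC1*, -0.36 to 0.46 for *CAB2R*, -0.50 to 0.21 for *LFNR1* and -0.16 to 0.84 for *CHLP*.

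Counts over all genes moved more. In the reported fit rises numbered 797 in H49 and 747 in WT, and falls 1408 in H49 and 1283 in WT. Arrays centred on the median gave 1136 rises in H49 and 1100 in WT, and 885 falls in H49 and 774 in WT. Quantile normalization gave 928 rises in H49 and 917 in WT, and 1041 falls in H49 and 974 in WT. Without the fold minimum rises numbered 1436 in H49 and 1401 in WT, and falls 2673 in H49 and 2610 in WT. A plain t-test after adjustment called 563 rises and 752 falls in H49, and 209 rises and 216 falls in WT. Unadjusted, with the fold minimum, it called 4 genes between genotypes. Of the other 23 pathway genes the plain t-test called 2 rises and 3 falls in H49, and 1 rise and 2 falls in WT. It lost the calls of *GSA*, *PPOX1*, *CHLH*, *PORB*, *CHLG*, *RCABP69* and *OsDOS* in H49. In WT it lost those of *RCCR1*, *GSA*, *PPOX1*, *CHLH*, *CHLI*, *CHLD* and *petC*. Quantile normalization lost *PPOX1* and *CHLG* in H49, and *CAB1R* gained a call without H49_CT replicate 3 in H49 and without WT_CT replicate 3 in WT. The causes were not tested. With single arrays left out, falls ran from 1228 to 1545 in H49 and from 1095 to 1485 in WT.

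The reported fit had no block for the replicate number. Yet 13 of 18 pairs with the same number had deviations correlated above 0.1 (lowest -0.195). Of 12 arrays, 10 correlated best with their own number. With the replicate number as a block rises numbered 810 in H49 and 761 in WT, and falls 1445 in H49 and 1336 in WT. The standard error of a change was then 0.22 for *CHLP*, against 0.51 without the block, and 0.18 for *CHLH*, against 0.44. For *CAB2R* it was 0.44, against 0.42. The interval of the interaction narrowed to -0.34 to 1.01 for *CHLP* and to -0.90 to 0.63 for *LFNR1*. *PSAG* was called in H49 under the block (limma adjusted p = 0.0276).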

Other observations

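*RCABP69* and *THF1* are neighbours in the reference gene table, 1 position apart on the same chromosome. After DS *RCABP69* changed by -2.57 in H49 and by -2.84 in WT, and *THF1* by 0.14 and 0.21. Of the 28 pathway genes, 5 were highest in replicate 2 in all 4 groups, against 2.57% of all genes, and 2 were highest in replicate 3, against 3.54%. *CCA1* itself changed after DS by 0.49 in H49 and by 0.81 in WT and was not called by limma.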
